A study of Caenorhabditis elegans with 2 samples.

Results

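The regions described here are the CND-1 peaks that lie between genes on the 5 autosomes of Caenorhabditis elegans, away from the starts of protein-coding genes. CND-1 is the worm member of the NeuroD family of basic helix-loop-helix (bHLH) transcription factors. A peak was included when its summit lay on an autosome, in no annotated gene, outside the window from 500 bp upstream to 100 bp downstream of every protein-coding transcript start, and over 100 bp from any tRNA, snoRNA, snRNA or ncRNA gene. The rule itself used position and not signal, but it was applied to the authors' list of peaks thresholded by reproducibility between replicates. It selected 342 peaks, called intergenic peaks below, of 1465 autosomal peaks (23.3%, 95% exact interval 21.2 to 25.6). The full list held a further 475 peaks on the X chromosome and 24 on the mitochondrial genome. The other autosomal peaks comprised 468 in promoters, 232 in introns, 363 at or beside noncoding RNA genes and 60 elsewhere.

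The study mapped CND-1 by chromatin immunoprecipitation and sequencing in whole embryos of strain OP349, with 2 biological replicates that form 1 group. The strain carries the mutation unc-119(ed3) and the transgene wgIs349, which supplies CND-1 fused at its C-terminal end to GFP and FLAG, and the fusion was precipitated through GFP. Embryos of mixed stage and sex were obtained by bleaching, with a labelled age of 3 hours, and chromatin was sonicated to between 200 and 800 bp. All cells of the embryos were pooled, so the peaks do not tell in which cells CND-1 was bound, and there is no second condition to compare. Peak signal is the authors' own value for each peak, with no stated scale, and sequencing depth is unknown from the peak lists.

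bHLH proteins bind DNA as dimers at the E-box, the 6-base site CANNTG, and the 2 inner bases and the bases on either side differ in which dimers they suit. Proneural and NeuroD-type proteins usually pair with an E protein, which in the worm is HLH-2. In the worm embryo cnd-1 is known for its part in neurogenesis and in the fates of motor neurons. Sites between genes and away from starts are where distal enhancers are commonly sought, although the worm genome is compact and most of its known regulatory DNA lies close to genes.

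The sequences at the strongest summits show the site that led among these peaks. Each of the following 61-bp windows is centred on the CAGATG nearest the summit, read on the strand that shows it, for the 12 strongest intergenic peaks on chromosomes II to V that held one within the 100 bp centred on the summit. Capitals mark CAGATG and its reverse complement, the name is that of the gene with the nearest protein-coding start, and the letters are those of the RefSeq WBcel235 genome, the assembly that the labels call ce11.
adah-1, chrIV:7023116-7023176, minus strand: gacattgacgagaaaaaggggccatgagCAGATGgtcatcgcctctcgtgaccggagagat
mdh-2, chrIII:6605638-6605698, minus strand: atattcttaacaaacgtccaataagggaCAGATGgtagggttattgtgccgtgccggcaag
Y44A6C.1, chrV:20711892-20711952, minus strand: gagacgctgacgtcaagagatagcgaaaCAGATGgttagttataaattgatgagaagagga
ceh-20, chrIII:6978986-6979046, minus strand: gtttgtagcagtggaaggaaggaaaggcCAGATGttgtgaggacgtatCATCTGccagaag
ZK930.2, chrII:11889500-11889560, minus strand: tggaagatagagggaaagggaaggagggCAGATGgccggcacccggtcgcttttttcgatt
din-1, chrII:11636018-11636078, minus strand: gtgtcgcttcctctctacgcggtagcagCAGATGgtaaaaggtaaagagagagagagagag
T28A11.22, chrV:3256964-3257024, plus strand: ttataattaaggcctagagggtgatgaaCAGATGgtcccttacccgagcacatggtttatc
F28F9.2, chrIV:3843277-3843337, plus strand: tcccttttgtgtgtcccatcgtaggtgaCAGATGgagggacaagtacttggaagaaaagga
che-10, chrII:4640949-4641009, plus strand: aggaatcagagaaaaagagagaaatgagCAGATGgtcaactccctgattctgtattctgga
ZK930.2, chrII:11890789-11890849, plus strand: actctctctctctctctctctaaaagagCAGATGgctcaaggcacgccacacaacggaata
C40A11.4, chrII:2139083-2139143, minus strand: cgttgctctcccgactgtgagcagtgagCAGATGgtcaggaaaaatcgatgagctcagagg
T25D10.4, chrII:6411720-6411780, minus strand: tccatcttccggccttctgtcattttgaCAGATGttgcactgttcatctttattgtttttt

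The strongest intergenic peak of all had no E-box in that window. The bases around its summit are shown beside those of another strong peak without one, near D2096.7, for contrast with the sites above. The peak near D2096.7 was the only 1 of the 20 strongest whose 200-bp window matched the A box, an internal promoter element of tRNA genes, and the annotated noncoding gene nearest to its summit, a snoRNA gene, lay 3224 bp away.
K12H4.5, chrIII:8043910-8044010, plus strand: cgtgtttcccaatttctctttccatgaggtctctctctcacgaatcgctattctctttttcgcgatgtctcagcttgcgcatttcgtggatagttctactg
D2096.7, chrIV:8375546-8375646, plus strand: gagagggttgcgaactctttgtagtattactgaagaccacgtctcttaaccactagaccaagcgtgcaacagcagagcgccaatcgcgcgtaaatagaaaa

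CAGATG was the E-box that marked these summits. It was present within the 100 bp centred on the summit in 102 of the 342 intergenic peaks (29.8%, 95% exact interval 25.0 to 35.0), against 10 (2.92%, interval 1.41 to 5.31) in a 100 bp flank centred 300 bp to the left. The ratio was 10.2, with an adjusted p of 1.59e-21 by the exact McNemar test over the 10 E-boxes. For background, 17.4% of all 1940 peaks on the nuclear chromosomes, the 342 among them, held it. Of the 102 peaks, 95 held 1 site, 6 held 2 and 1 held 3 sites. The site nearest the summit lay a median of 19.5 bp from it (range 0 to 47.0), and in 65 of the 102 peaks (63.7%) within 25 bp.

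Any E-box was found in 211 summit windows (61.7%, interval 56.3 to 66.9), against 99 flanks (28.9%, interval 24.2 to 34.1), a ratio of 2.13 (exact McNemar p = 3.95e-17). The background over all nuclear peaks was 49.4%. Besides CAGATG, 3 of the 10 E-boxes passed the test, so that 40% of the E-boxes were called. CAGCTG was in 30 summit windows and 4 flanks (ratio 7.50, adjusted p = 3.08e-05), CACCTG in 32 and 12 (ratio 2.67, adjusted p = 0.00914) and CATATG in 10 and 0 (adjusted p = 0.00651), all by the exact McNemar test. The CACCTG call was not made from replicate 2 alone (ratio 1.53, adjusted exact p = 0.320), among peaks above the median signal of the list (ratio 1.43, adjusted exact p = 0.915) or with 60-bp windows (ratio 2.43, adjusted exact p = 0.107). The CATATG call was lost against the flank on the right (adjusted exact p = 0.899), from replicate 1 alone (adjusted exact p = 0.699), among peaks above the median signal (adjusted exact p = 0.208) and with 200-bp windows (adjusted exact p = 0.303). It was also lost with the promoter window of 1000 bp upstream (adjusted exact p = 0.0781) and without the distance to noncoding genes (adjusted exact p = 0.0562). The other 6 E-boxes did not pass, although CACATG did with 60-bp windows (ratio 4.67, adjusted exact p = 0.0391). CAATTG was in 17 summit windows and 8 flanks (adjusted exact p = 0.186), CAAATG in 31 and 24 (adjusted exact p = 0.632), CACATG in 16 and 11 (adjusted exact p = 0.632), and CACGTG in 7 and 5 (adjusted exact p = 0.968). CAACTG was in 23 summit windows and 25 flanks (adjusted exact p = 0.975), and CAAGTG in 16 of each (adjusted exact p = 1.00).

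**Figure D1:**
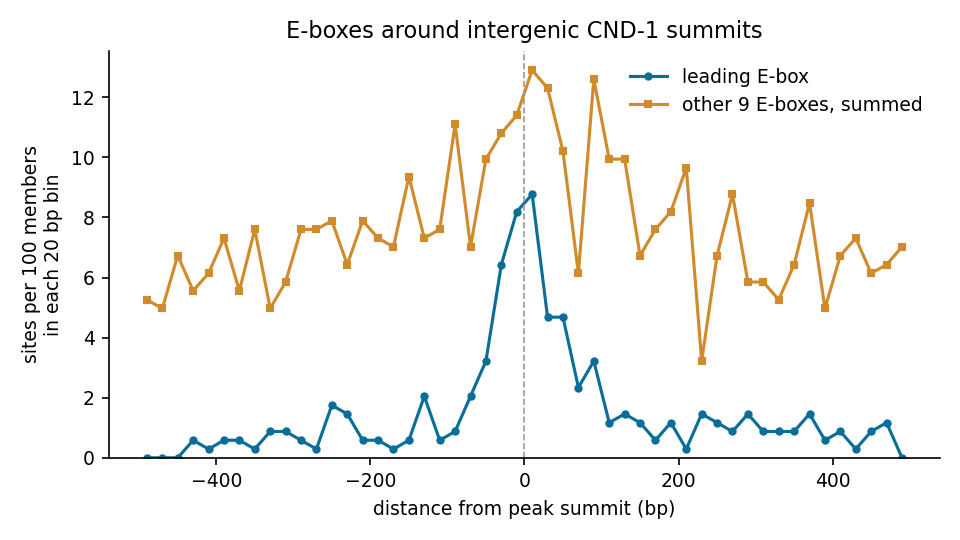
E-box sites per 100 intergenic peaks in 20 bp bins, by distance from the summit in bp. The leading E-box is CAGATG, which reached 8.77 sites per 100 peaks in the 20 bp right of the summit and 8.19 in the 20 bp left of it; the 9 other E-boxes are summed and reached 12.9.

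The bases beside CAGATG also differed from those beside other copies of it. The 110 CAGATG sites in the summit windows were compared with 6467 CAGATG sites in sequence where the rule allows a summit, outside every peak. With positions counted outward from the 6 bases on the strand that reads CAGATG, the base just after it was G in 65.5% of peak sites (interval 55.8 to 74.3), against 19.6% of the other sites (adjusted exact p = 2.33e-23). The base just before it was T in 1 of the 110 peak sites (0.909%), against 35.2% of the others (adjusted exact p = 4.34e-18), and A or G in 41.8% of peak sites each, against 25.9% for A and 19.4% for G. At the second base before it G stood in 50.9% of peak sites, against 19.4% of the others (adjusted exact p = 2.47e-12). The pair GT followed CAGATG in 38 peak sites (34.5%), against 5.15% of the others. Fisher's exact test called 22 of the 40 combinations of base and position (55%), with adjustment over the 40. Calls reached the outermost positions, where T stood 5 bases before the site in 14.5% of peak sites, against 29.3% of the others. The other sites were not matched to the peak sites for base content, and its part in these differences was not tested.

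The summit windows were also richer in G and C than their surroundings, which bears on every count of short words. G+C content averaged 48.3% ± 6.49 at the summit and 34.5% ± 8.38 in the flank (SD over 342 peaks), and it was higher at the summit in 305 peaks, lower in 25 and equal in 12 (exact sign test p = 2.32e-62). Promoter and intronic peaks had summit means of 48.7% and 48.5%. Among all 6-base words, counted on both strands together, 222 were found more often at the summits (10.7% of those tested) and 184 less often (8.85%), at an adjusted p under 0.05 by the exact McNemar test and a ratio of at least 1.5 either way. None of the words without G or C was among the 222, and 28 of those 36 words were among the 184. Words with 3 G or C bases, as CAGATG has, were together 1.45 times as frequent at the summits as in the flanks, against the ratio of 10.2 for CAGATG itself. The part of base content in these counts, that of CAGATG included, was not tested.

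Among the 6-mers with a count above 0 in the flanks, the 10 with the largest ratios were made mostly of G and C and were each in 20 or fewer summit windows. The first was GGGGAC, in 20 summit windows and 1 flank (exact McNemar test, adjusted p = 3.73e-04), and the last GCGTGA, in 13 and 1 (adjusted p = 0.0133). More frequent words were AGATGG, which overlaps CAGATG by 5 bases when G follows it, in 98 summit windows and 11 flanks (ratio 8.91), and GAGAGA, in 106 and 27 (ratio 3.93). ACCATC, whose reverse complement GATGGT overlaps CAGATG by 4 bases, was in 61 and 6 (ratio 10.2). The word AAAAAT was the one with the lowest p among those scarcer at summits, in 38 summit windows and 184 flanks (ratio 0.207). Apart from CAGATG and the 10 largest ratios, these words were picked after their values were seen.

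The intergenic summits differed from promoter summits in E-boxes. CAGATG was in 29.8% of intergenic peaks, against 12.8% of the 468 promoter peaks (interval 9.93 to 16.2), with an adjusted p of 6.87e-08 by Fisher's exact test over 22 comparisons. From replicate 1 alone the difference was 10.6 points (adjusted exact p = 0.00422), and among peaks above the median signal of the list it was 28.9 points (adjusted exact p = 1.17e-07). CACCTG was in 9.36% of intergenic peaks and 3.42% of promoter peaks (adjusted exact p = 0.00529), a call lost among peaks above the list's median signal (adjusted exact p = 0.538) and with 60-bp windows (adjusted exact p = 0.165). CAAGTG went the other way, with 4.68% of intergenic peaks and 11.1% of promoter peaks (adjusted exact p = 0.00882), and its call was lost from replicate 1 alone (adjusted exact p = 0.216) and with the wider promoter window of 1000 bp upstream (adjusted exact p = 0.316). It was also lost among peaks above the list's median signal (adjusted exact p = 0.0669) and with 200-bp windows (adjusted exact p = 0.0751). Against the 232 intronic peaks, of which 22.8% held CAGATG (interval 17.6 to 28.8), the difference of 6.98 points did not pass (adjusted exact p = 0.222), and from replicate 1 alone it was 0.0832 points. Any E-box was more frequent in intergenic peaks than in promoter peaks (51.7%, adjusted exact p = 0.0286) and intronic peaks (50.4%, adjusted exact p = 0.0345), but from replicate 1 alone these differences were 3.69 points (adjusted exact p = 0.836) and 2.46 points (adjusted exact p = 1.00). Both calls were also lost with the promoter window of 250 bp upstream, with 60-bp and 200-bp windows and among peaks above the list's median signal. The difference from intronic peaks also failed to pass from replicate 2 alone (9.65 points, adjusted exact p = 0.124), so in neither replicate by itself, and with the wider promoter window (adjusted exact p = 0.0777).

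A comparison of all 6-mers with promoter peaks, added after the data had been seen, called 27 words as more frequent in intergenic peaks (1.3%) and 62 as less frequent (2.98%) by Fisher's exact test. With 60-bp windows these counts were 9 and 31, and with 200-bp windows 111 and 134. AGATGG was in 28.7% of intergenic peaks and 11.5% of promoter peaks (adjusted exact p = 2.31e-06), and ACCATC in 17.8% and 6.41% (adjusted exact p = 1.02e-04). GAGAGA was in 31.0% of intergenic peaks and 18.2% of promoter peaks (adjusted exact p = 0.00212). TTGCAA was in 2.34% of intergenic peaks and 13.0% of promoter peaks (adjusted exact p = 1.00e-05), and GCCGCA in 2.63% and 13.2% (adjusted exact p = 1.40e-05).

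CAGATG was concentrated in the strongest intergenic peaks. When the 342 were cut by signal into 4 sets of nearly equal size, it was in 48 of 86 of the strongest set (55.8%, interval 44.7 to 66.5), in 25.6% of the second, 22.4% of the third and 13 of 85 of the weakest (15.3%, interval 8.40 to 24.7). The strongest and weakest sets differed with an adjusted p of 6.29e-08 by Fisher's exact test. Any E-box was in 75.6% of the strongest and 49.4% of the weakest set (adjusted exact p = 4.95e-04). In promoter peaks the CAGATG share ran from 19.7% in their strongest set to 6.84% in their weakest, and in intronic peaks from 48.3% to 6.90%. Whether this gradient itself differed between the classes was not tested.

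**Figure D2:**
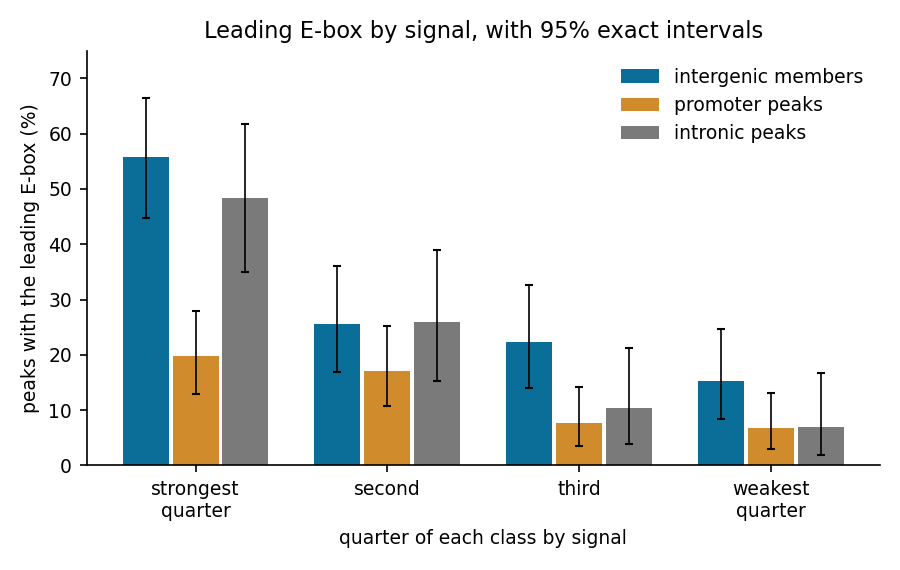
Share of peaks in percent with CAGATG, the leading E-box, within 100 bp centred on the summit, by signal, with each class cut into 4 sets of nearly equal size; bars are shares and lines are 95% exact intervals. The strongest intergenic set stands at 55.8% and the weakest at 15.3%.

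By E-box content the peaks fell into 102 with CAGATG, 109 with another E-box only and 131 (38.3%) with none. Signal had a median of 176 in peaks with CAGATG (range 105 to 619), 133 in those with another E-box only (range 103 to 441) and 135 in those with none (range 103 to 1204). Peaks were found in both replicates, as defined below, in 78 of 102 cases with CAGATG (76.5%, interval 67.0 to 84.3), 51.4% with another E-box and 50.4% with none (interval 41.5 to 59.2). GAGAGA was in 52 of the 131 windows without an E-box (39.7%) and in 27.5% of those with CAGATG. G+C content averaged 50.1% ± 6.91 in windows without an E-box and 46.5% ± 5.14 in those with CAGATG (SD over peaks). These splits are descriptions, with no test.

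Signal in the intergenic peaks was spread widely, with a small number far above the rest. It ran from 103 to 1204 with a median of 140, against medians of 150 in promoter peaks and 138 in intronic peaks. Of the 342, 42.1% (interval 36.8 to 47.5) exceeded the median of 150 of all nuclear peaks, against 49.8% of promoter peaks (Fisher's exact test, adjusted p = 0.0650), and the difference from intronic peaks was -1.86 points (adjusted p = 0.668). With a promoter window of 1000 bp upstream and 200 bp downstream the difference from promoter peaks was -9.46 points and passed (adjusted exact p = 0.0236). The median width was 396 bp.

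A peak was counted as found in both replicates when each replicate had a summit within 100 bp of its own among as many of that replicate's strongest regions as the list has peaks. This held for 200 of the 342 intergenic peaks (58.5%, interval 53.1 to 63.8), against a background of 67.3% over all nuclear peaks. Another 58 were found in replicate 1 only, 71 in replicate 2 only and 13 in neither. The share was 69.4% in promoter peaks (Fisher's exact test, adjusted p = 0.00273) and 60.3% in intronic peaks (adjusted p = 0.666). The difference from promoter peaks was thus -11.0 points. Among peaks above the median signal of the list 98.6% of the intergenic peaks were found in both. There the difference from promoter peaks turned direction, to 2.50 points, and did not pass (adjusted exact p = 0.217). Over the full lists of 30000 regions, 317 of the 342 (92.7%) had a summit in each replicate. Across those 317 the replicates' signals had a Spearman coefficient of 0.59 and a Pearson coefficient of log2 signal of 0.68. The points are peaks that share the same libraries, and the peak list had been made from both replicates.

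**Figure D3:**
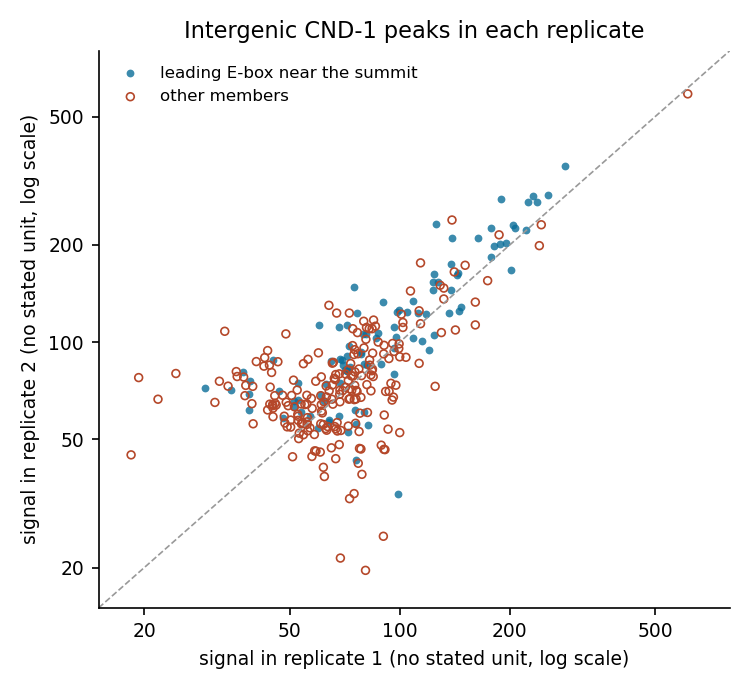
Signal of 317 intergenic peaks in replicate 1 and replicate 2 (authors' values, no stated unit, log axes); filled points have CAGATG, the leading E-box, within 100 bp centred on the summit and the dashed line marks equal signal. The strongest peak had 614 and 588, and most other points lie near 100 or below in both replicates.

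The 20 intergenic peaks with the highest signal were all found in both replicates, and 15 of them held CAGATG, 2 another E-box and 3 none. They ranked between 15 and 171 in the list, lay 527 to 3873 bp from the nearest coding start and were upstream of it in 15 cases. The first (chrIII:8043805-8044148) had a signal of 1204, with 614 in replicate 1 and 588 in replicate 2, and lay 527 bp upstream of K12H4.5. It stood apart from the second, which had 619, with 284 and 352 in the replicates. That second peak (chrI:11588969-11589274) held CAGATG and CAGCTG and had as nearest start, 3046 bp away, that of spe-9, which encodes a sperm surface protein needed for fertilization. The next gene on its right was unc-75, a neuronal RNA-binding protein that acts in splicing.

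The third lay 1048 bp upstream of adah-1 (chrIV:7023027-7023279, signal 546) and the fourth 579 bp upstream of hrpr-1, which encodes an hnRNP protein (chrI:12065329-12065605, signal 518). The fifth (chrIII:6605525-6605798, signal 502) lay 2449 bp downstream of the nearest start, that of mdh-2, for a malate dehydrogenase. The sixth and seventh were near Y44A6C.1 (signal 491) and D2096.7 (signal 480). The eighth (chrIII:6978941-6979090, signal 469, with 189 and 278 in the replicates) lay 868 bp upstream of ceh-20, the worm Pbx homeobox gene, and its summit fell on 1 of the 2 CAGATG sites printed above.

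The next pair lay upstream of the zinc finger gene ztf-6 (signal 444) and of cbp-1, which encodes a CBP/p300 histone acetyltransferase (signal 441, CAAATG). The 11th and 12th lay near ZK930.2 and upstream of din-1, which encodes a corepressor that works with the nuclear receptor DAF-12, each with a signal of 435. Signals of the remaining 8 ran from 406 to 364, and the nearest starts were those of T28A11.22, F47B3.4, hmg-1.1, W09C3.4, F28F9.2, Y54G11A.2, T28F4.1 and che-10, the last the worm homologue of the cilium root protein rootletin. The peak nearest F28F9.2 (chrIV:3843226-3843459, signal 381) had as its right neighbour, across a gap of 14214 bp, zag-1, a ZEB-family regulator of neuron differentiation. The peak near T28F4.1 (signal 370) held 5 different E-boxes, the most in any window.

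The intergenic peaks were not spread evenly over the autosomes. The rule allowed a summit in 19.7 of 82.6 Mb of autosomal sequence (23.9%), called eligible sequence here, which gave 17.3 peaks per Mb. Of this sequence 43.9% was repeat-masked, and no density per Mb was corrected for how well reads can be placed there. Chromosome I held 82 peaks, or 27.2 per Mb, 1.57 times its share of eligible sequence (exact binomial test, adjusted p = 6.82e-05), and chromosome III held 73, or 24.8 per Mb (ratio 1.43, adjusted p = 0.00274). Chromosome V held 47, or 9.32 per Mb (ratio 0.538, adjusted exact p = 9.07e-07). Chromosomes II with 64 peaks (ratio 0.989, adjusted exact p = 1.00) and IV with 76 (ratio 0.875, adjusted exact p = 0.288) did not pass here, nor did the central of 3 equal parts of each autosome, summed over the 5 (ratio 1.01, adjusted exact p = 1.00). Among peaks above the median signal of the list the ratio was 1.38 for I (adjusted exact p = 0.0914) and 1.42 for III (adjusted exact p = 0.0888), and with the wider promoter window it was 1.28 for III (adjusted exact p = 0.120). Chromosome IV passed with the narrower promoter window (ratio 0.819, adjusted exact p = 0.0429) and from replicate 2 alone (ratio 0.774, adjusted exact p = 0.0244). The share of peaks with CAGATG was 24.4% on I, 40.6% on II, 27.4% on III, 28.9% on IV and 29.8% on V, with exact intervals that overlapped.

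Gaps between genes whose ends face each other held fewer peaks than their share of eligible sequence. Of the 342, 28 lay between convergent genes (8.19%, interval 5.51 to 11.6), against 13.9% of eligible sequence (ratio 0.590, exact binomial test, adjusted p = 0.00502 over the 3 orders). When only summits inside noncoding RNA genes were removed and not those within 100 bp, the ratio was 0.753 and did not pass (adjusted exact p = 0.146). Divergent gaps, where both flanking genes start, held 124 peaks (36.3%, against 32.1% of eligible sequence, ratio 1.13, adjusted exact p = 0.157). With a promoter window of 250 bp upstream their ratio was 1.21 and passed (adjusted exact p = 0.00278). Gaps between genes in tandem held 190 (ratio 1.03, adjusted exact p = 0.588). CAGATG was in 7 of 28 peaks in convergent gaps, 27.4% in divergent and 32.1% in tandem gaps.

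**Figure D4:**
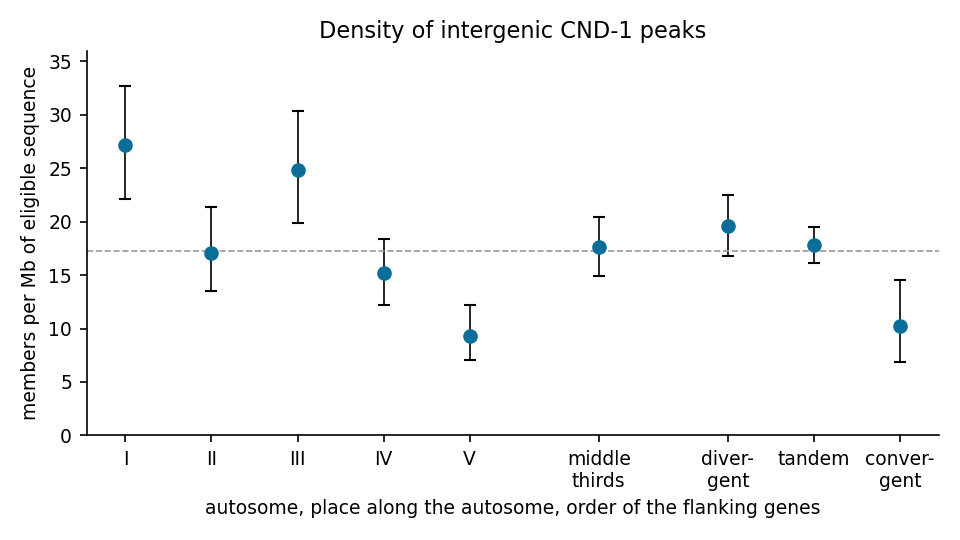
Intergenic peaks per Mb of eligible sequence for each autosome, for the central of 3 equal parts of the autosomes and for gaps by the order of the flanking genes, with 95% exact intervals; the dashed line is the mean of 17.3 per Mb. Chromosomes I and III lie above it with 27.2 and 24.8, and chromosome V and convergent gaps lie below it with 9.32 and 10.2.

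The intergenic peaks lay mostly upstream of the nearest coding start, as did most of the sequence in which the rule allows a summit. The median distance was 1893 bp (range 270 to 19755), 267 peaks (78.1%, interval 73.3 to 82.3) were upstream of that start and 75 downstream, while 70.4% of eligible sequence was upstream and 29.6% downstream. This made 19.2 peaks per Mb upstream and 12.8 per Mb downstream, a difference that was not tested, and 37 of the peaks (10.8%) were over 5000 bp away. Per Mb of eligible sequence at the same distance, the upstream peaks numbered 20.7 from 500 to 1000 bp (95% Poisson interval 16.2 to 26.1) and 27.2 from 1000 to 1500 bp (interval 20.8 to 35.0). They numbered 11.6 from 1500 to 2000 bp (interval 6.96 to 18.1), 23.7 from 2000 to 3000 bp, 15.2 from 3000 to 5000 bp and 13.5 beyond (interval 8.85 to 19.8). The downstream peaks, from 3 to 22 in a bin, numbered between 6.10 per Mb from 1000 to 1500 bp (interval 1.66 to 15.6) and 23.1 per Mb below 500 bp (interval 4.76 to 67.5). The peaks just past the 500 bp limit were those of atgp-1 at 501 bp (signal 106), cpg-4 at 502 bp (signal 144) and unc-70 at 527 bp (signal 117). The strongest peak of all, that of K12H4.5 (signal 1204), also lay at 527 bp, so the promoter window of 1000 bp upstream would take it in. Just within it, and so not among the 342, were promoter peaks of F25H5.10 and ect-2 at 500 bp (signals 233 and 202) and of hpo-7 at 495 bp (signal 119).

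**Figure D5:**
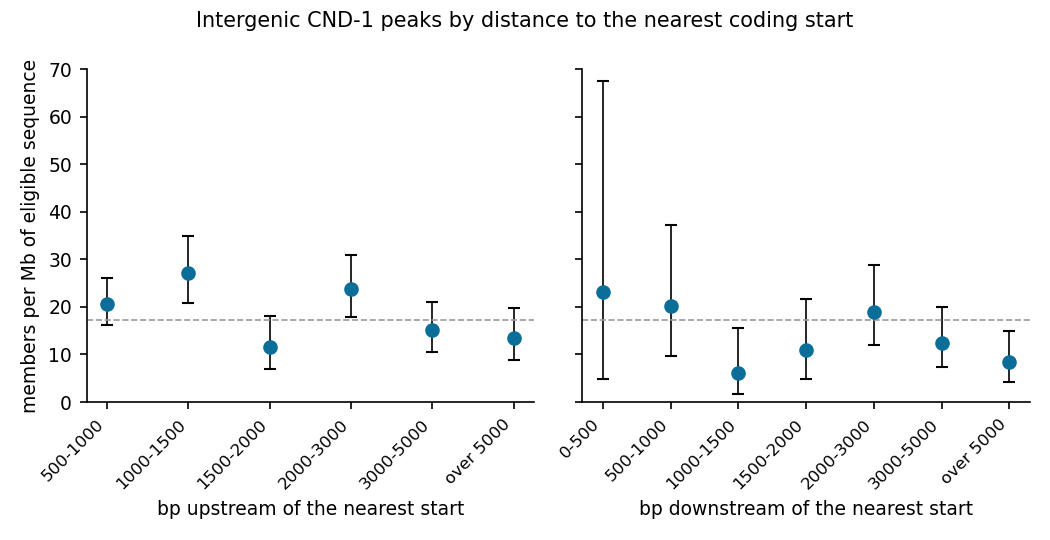
Intergenic peaks per Mb of eligible sequence by distance in bp upstream (left) and downstream (right) of the nearest coding start, with 95% Poisson intervals that cover counting only; the dashed line is 17.3 per Mb. Upstream values run from 11.6 to 27.2, and the first downstream point rests on 3 peaks.

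The 3 peaks farthest from any coding start had signals of 282, 135 and 310, against the median of 140 for all 342. The farthest (chrIV:16047492-16047887) lay 19755 bp from the start of Y105C5B.1418 with a signal of 282, 129 and 150 in the replicates, and held CAGCTG. The next (chrIII:8865317-8865712, signal 135) lay 11613 bp from the start of K01F9.2 but 148 bp from the microRNA gene mir-80. The third (chrI:11664931-11665100, signal 310) lay 9997 bp from F11A6.16, had kpc-1 as its right neighbour and held CACCTG.

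The 342 peaks occupied 294 gaps between protein-coding genes, 257 of them with 1 peak, 28 with 2 and 9 with 3 or more, so that 85 peaks (24.9%) shared a gap. The gap between sri-5 and ztf-6 (20715 bp) held 4 peaks within 2344 bp, with signals of 147, 174, 444 and 110, the strongest of which held CAGATG. The gap between F54F12.1 and Y39E4B.6 (15313 bp) also held 4, with signals of 331, 119, 211 and 183. Gaps with 3 included that beside cfz-2, a Frizzled-type Wnt receptor gene (signals 143, 187 and 144). They also included those beside rho-1, the worm RhoA gene (139, 194 and 140), and sup-26, which encodes an RNA-binding protein (151, 243 and 108). The other gaps with 3 are not listed here. Peaks in 1 gap may not be independent sites, and 30 of the 342 (8.77%) had another peak of the list within 1000 bp.

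MicroRNA genes, which the rule did not name, were looked at as well. Of the 342 peaks, 6 lay within 1000 bp of an annotated microRNA gene, of which the autosomes hold 187. The share of eligible sequence that close to these genes was not computed, so the count shows neither an excess nor a deficit. A pair of them flanked the mir-42 to mir-44 cluster near ZK930.2, at 261 bp from mir-42 (chrII:11889451-11889686, signal 435, 204 and 230 in the replicates) and 742 bp from mir-44 (chrII:11890803-11890901, signal 363, 164 and 210), both with CAGATG. The others were near mir-52 at 105 bp (signal 149), mir-80, mir-53 at 96 bp (signal 133, with no summit in replicate 1) and mir-4805 at 117 bp (signal 120). The A box was found in 11 of the 342 windows of 200 bp (3.22%, interval 1.62 to 5.68), that of D2096.7 among them, and the B box, the other such element, in 2 (0.585%). In autosomal peaks at noncoding RNA genes these shares were 30.9% and 28.7%, and in windows tiled over eligible sequence 2.20% and 0.495%. The RefSeq annotation, which the rule did not use, placed 1 of the 342 summits in a gene, mus-101. Repeat-masked bases, in lower case in RefSeq's own sequence, held 46 summits (13.5%), against 43.9% of eligible sequence. Whether the authors' reads could be placed in such sequence as well as elsewhere was not tested.

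The nearest coding starts of the 342 peaks belonged to 313 of 17242 autosomal protein-coding genes (1.82%), of which 289 were nearest to 1 peak, 20 to 2 and 4 to more. Lists of genes are described by the same share, without a test. The lists, several of them short, were chosen with earlier results of these data known. Their shares are therefore not independent evidence of a preference. Genes with long upstream gaps have more sequence in which such a peak can fall, and this was not corrected for.

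Genes of axon guidance and outgrowth, which steer growing axons and build their cytoskeleton, were nearest to a peak in 10 of 36 cases (27.8%). The strongest lay 4836 bp upstream of the ankyrin gene unc-44 (chrIV:5970645-5970776, signal 315, 143 and 161 in the replicates) with CAGATG. Next were the kinesin-1 heavy chain gene unc-116 (signal 233, 112 and 123, CAGATG) and the ADAM metalloprotease gene unc-71 (signal 203, 84.8 and 117, no E-box). The other 7 were the guanine nucleotide exchange factor gene unc-73 (165), the receptor phosphatase gene clr-1 (139), the L1CAM gene sax-7 (123), the Eph receptor gene vab-1 (112), the semaphorin gene smp-1 (106), madd-2 (105) and the kinase gene unc-51 (103). All 10 peaks were upstream of their gene, against 78.1% of the 342 intergenic peaks, and 4 held CAGATG, against 29.8% of the 342.

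The Wnt pathway, in which Frizzled receptors signal through beta-catenin to the factor TCF, had 6 of 25 autosomal genes (24.0%) nearest to a peak. The Frizzled genes were cfz-2 (2 peaks, the stronger at chrV:3449747-3450142 with signal 187, 90.4 and 91.9 in the replicates), mig-1 (153) and mom-5 (152). The gene for the Wnt secretion factor, mig-14, had a peak with signal 164, and the intracellular members were the beta-catenin gene wrm-1 (135) and the TCF gene pop-1 (103). Of these 7 peaks only that of mig-1 held CAGATG, against 29.8% of the 342.

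Homeobox genes had 6 of 73 (8.22%), with ceh-20 (signal 469) followed by ceh-58 (191) and unc-30, the Pitx-type regulator of GABA neurons (155, CAGATG and CATATG), and then by the Hox gene ceh-13 (113), the Meis gene unc-62 (110) and the Distal-less gene ceh-43 (108). The GATA factor gene egl-18 had 2 peaks (signals 197 and 117). The gene egl-27, placed on the same list, had 1 (179), which made 2 of 26 genes on the T-box and GATA list (7.69%). All 3 peaks held CAGATG, against 29.8% of the 342, but they are few and 2 of them are at 1 gene. Of the 6 homeobox peaks 3 held it, and of the 2 nuclear hormone receptor peaks 0 did. Of 31 bHLH genes (3.23%) hlh-2, whose protein is the E protein partner of other bHLH factors, was the only 1. Its peak (chrI:7194857-7195252) had a signal of 175, 84.3 and 92.4 in the replicates, ranked 751 in the list, lay 1135 bp upstream of the start and held no E-box. Nuclear hormone receptor genes had 2 of 247 (0.810%), and SOX and forkhead genes 0 of 12.

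Among other lists, genes of the synapse and of all neurons had 2 of 23 (8.70%), led by the syntaxin gene unc-64 (signal 170, CAGATG), and neuropeptide and insulin genes 1 of 107 (0.935%), the nlp-4 peak with a signal of 288. Chemoreceptor genes, a very large family expressed mainly in differentiated sensory neurons, had 2 of 1276 (0.157%), srh-171 (136) and srsx-8 (124). Cell cycle regulators had 2 of 28 (7.14%), the CDK inhibitor gene cki-1 (signal 184, CAGATG) and the cyclin A gene cya-1 (134). For genes of cell types other than neurons, the counts were 3 of 24 for epidermis (12.5%; egl-18, hmr-1 and unc-70), 2 of 20 for body wall muscle (unc-60 and pat-3) and 2 of 29 for the germ line (6.90%; mex-3 and cgh-1). They were 1 of 15 for glia (6.67%), and 0 of 19 for the intestine and 0 of 16 for the pharynx. The 1 gene from the glial list, egl-46 (signal 225, CACCTG and CAGATG), is known as a zinc finger factor of neuron differentiation. Cuticle collagens had 1 of 144 (0.694%), histones 2 of 76 (2.63%), cytosolic ribosomal proteins 1 of 76 (1.32%), and genes of the Notch pathway 0 of 16.

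Assigning peaks to both genes that flank them, a choice made after the data had been seen, gave 577 of 17242 autosomal genes (3.35%). Under it the Wnt pathway had 10 of 25, adding cam-1, dsh-1, lit-1 and sys-1. Axon guidance had 11 of 36 (30.6%), homeobox genes 11 of 73 (15.1%), adding among others the Hox genes lin-39 and egl-5, cell cycle regulators 5 of 28 (17.9%), and chemoreceptors 13 of 1276 (1.02%). The bHLH genes still had hlh-2 alone. Body wall muscle genes had 3 of 20, epidermal genes 3 of 24 (12.5%) and germline genes 3 of 29 (10.3%). Glial genes had 2 of 15 (13.3%), and genes of the synapse and of all neurons 3 of 23 (13.0%). The intestine had 0 of 19 and the pharynx 0 of 16. The homeobox share was thus close to that of body wall muscle genes.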

How the data were processed

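The authors deposited narrowPeak lists for each replicate and for the pooled reads (30000 regions each) and 1 thresholded list on ce11, made, per the deposited README, from the other 3 by the irreproducible discovery rate (IDR). The deposited signal value and −log10 q-value are the authors'; ranks used the signal, and the −log10 q-value was not used. Neither caller nor aligner nor IDR limit is given in the sources used here. Summits were placed with Ensembl release 115 and RefSeq's WBcel235 sequence, using Python 3.11.15, pandas 2.3.3 and SciPy 1.17.1. E-boxes and 6-mers were searched on both strands. McNemar's, Fisher's, binomial and sign tests were exact and two-sided, with Benjamini-Hochberg adjustment in each family (threshold 0.05) and 95% Clopper-Pearson intervals. The 6-mer test was tried on simulated data, in which both sets of windows were shuffled flank windows with the same base content. That trial cannot show how the test behaves where G+C content differs between summit and flank, as it does here. Peaks near each other are not independent and all come from the same 2 cultures, so p-values describe the sites and are too small as tests of a condition. Named peaks are the 20 strongest, up to 3 per gene list of 21, that of hlh-2, the 3 farthest from a start and those at the limits. Further members of the axon guidance, Wnt and homeobox lists, peaks in shared gaps and peaks near microRNA genes were added after their values were seen. The peaks and gene lists were chosen with earlier results of these data known. Of the names listed, 5 matched no gene. Alternatives are given at the end.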

Additional observations from a re-analysis of the deposited data

How the results depend on the processing

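The tests and counts behind 44 results were recomputed under 15 other settings where they apply. Those for CATATG, the bases beside CAGATG and the 6-mers against promoter peaks were added after the data had been seen, and descriptions such as the gene lists were not recomputed. The summit against flank results for CAGATG and any E-box, the CAGATG difference from promoter peaks, the signal gradient of CAGATG, the G+C difference and the deficit on chromosome V kept their direction and passed the test under every setting run for them. Using 1 replicate alone (as many of its strongest regions as the list has peaks, under the same rule) gave 321 to 331 peaks, a CAGATG ratio of 8.56 to 10.6, a CAGATG difference from promoter peaks of 10.6 to 19.2 points and a convergent ratio of 0.539 to 0.545.

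Peaks above the list's median signal included 142 intergenic ones, with 55 6-mers higher and 72 lower at summits, 98.6% found in both replicates, and differences in that share of 2.50 points from promoter and 3.54 points from intronic peaks. With 60-bp windows 102 6-mers were higher and 113 lower, and with 200-bp windows 374 were higher. The 6-mers higher and lower in intergenic than in promoter peaks numbered 13 and 36 with the narrower promoter window, 11 and 19 above the median signal, 9 and 31 with 60-bp windows and 111 and 134 with 200-bp windows. The bases called beside CAGATG numbered 13 with 60-bp windows. The share found in both replicates was 48.0% with summits within 50 bp, 92.7% over all regions and 29.8% when the set of strongest regions searched was cut to 0.5 of its size, where the difference from promoter peaks was -7.35 points (Fisher's exact test, adjusted p = 0.0596). The wider promoter window gave -9.46 points for the share above the median signal, against promoter peaks. The narrower one gave 1.21 for divergent and 0.981 for tandem gaps, and differences from intronic peaks of 8.77e-04 points (found in both) and 0.00351 points (above the median). Without the distance to noncoding genes the convergent ratio was 0.753. The causes of these changes were not tested.

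Of the values that turned direction, 1 had passed in the main setting. The difference from promoter peaks in the share found in both replicates was -11.0 points there. Among peaks above the list's median signal it was 2.50 points and did not pass. Some other values turned direction without passing in either setting, and the single-replicate values are given as pairs even where only 1 of them turned. They were the chromosome II ratio (1.02 and 1.07 under the wider and narrower promoter windows, 1.07 without the distance to noncoding genes, 1.12 without replicate 1, 0.955 without replicate 2, 1.38 above the median signal, 1.00 with overlapping peaks joined) and the summit ratio of CAACTG (1.19 with the narrower window, 1.19 without the distance to noncoding genes, 0.750 without replicate 1, 1.47 without replicate 2, 1.07 with 60-bp windows, 1.10 with the right flank). So did the ratios of CACGTG (0.455 without replicate 1), CAAATG (1.45 without replicate 1, 0.833 without replicate 2 and above the median signal) and CACATG (0.571 above the median signal). Against intronic peaks, CACCTG gave -0.607 points without replicate 1, 1.95 without replicate 2 and -0.202 with 60-bp windows, and CAAGTG 0.173 points with the wider promoter window. Across the 44 results, 23 of 404 recomputed values turned direction. That set leaves out the differences of 7 unnamed E-boxes from promoter and intronic peaks, a choice made after their values had been seen. With those 14 results included 50 of 544 values turned direction, and none of the 140 added values passed its test. The number of E-box differences that passed was 5 of 22 and ranged from 1 to 5. No paired analysis was possible because the 2 replicates form 1 group.

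Depth is not given in peak lists, the intervals cover the counting of peaks only, and a flank on the left lay in eligible sequence for 277 of the 342 peaks (81.0%).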
